A study of Mus musculus with 17 samples.

Results

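Hmox1, Gclc, Gclm, Txnrd1, Srxn1, Slc7a11, Mt1, Mt2 and Prdx1 are 9 genes of the oxidative and metal stress response, chosen by name as targets of the transcription factor Nrf2 and as metallothioneins. They are 9 of the 30406 genes listed in all 17 libraries, and each of the 9 was listed in every library. The study generated mice that overexpress SARA (the Smad anchor encoded by Zfyve9) in cells with PDGFRb-Cre activity and examined fibrosis in them. GFP+ cells were sorted from digested skin or kidney, and their transcripts were counted cell by cell on the 10x Genomics 3′ platform. All mice carried PDGFRb-Cre and the Z/EG reporter, which turns on GFP after recombination, and were 8 weeks old. SARATg mice also carried a human SARA cDNA behind a lox-stop-lox cassette, driven by the CAG promoter at Rosa26, and SARAWT mice did not.

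Skin came from SARAWT mice given PBS (3 libraries) or bleomycin (3 libraries) and from SARATg mice given PBS (1 library) or bleomycin (1 library). The labels give bleomycin, a DNA-damaging drug used to induce skin fibrosis, at 20 mg/kg under the skin 3 times a week for 2 weeks, and the study's methods give another schedule. By those methods mice were killed 1 week after the last bleomycin injection. Kidney came from SARAWT mice given vehicle (3 libraries) or aristolochic acid (AA, 3 libraries) and from SARATg mice given vehicle (2 libraries) or AA (1 library). AA, a plant nephrotoxin, was injected into the abdomen at 5 mg/kg 3 times a week for 3 weeks. PDGFRb-Cre is expressed constitutively, and the study notes that its promoter is also active in inflammatory cells of the embryo, so the GFP+ gate holds more than pericytes. How many mice gave each library is not given in the sources used here, so p-values measure only the spread between these libraries.

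Nrf2 (encoded by Nfe2l2) is held in the cytoplasm and degraded through Keap1. Electrophiles and oxidants modify Keap1, and Nrf2 then accumulates, pairs with small Maf proteins and binds the antioxidant response element, a site that the repressor Bach1 can occupy instead. Its targets fall into arms: haem breakdown (Hmox1), glutathione synthesis from imported cystine (Slc7a11, Gclc, Gclm), and the thioredoxin and peroxiredoxin system (Txnrd1, Srxn1, Prdx1). Metallothioneins (Mt1, Mt2) are small cysteine-rich proteins that bind zinc, copper and cadmium. They are switched on mainly by the zinc-sensing factor Mtf1 through metal response elements and by glucocorticoids.

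The letters upstream of the members are shown because these 2 kinds of element define the group. Windows of 300 bases (250 before and 50 after each RefSeq start, build GRCm38.p6) were searched on both strands for the antioxidant response element TGACNNNGC and for the metal response element core, written as TGCACNC or TGCGCNC. Capitals mark matches, in the shorter stretches further below only those of the antioxidant response element, and a match is a description of letters only. Here are the 250 bases upstream of each metallothionein start, on the plus strand at chr8:94178839-94179088 for Mt1 and chr8:94172368-94172617 for Mt2:
Mt1: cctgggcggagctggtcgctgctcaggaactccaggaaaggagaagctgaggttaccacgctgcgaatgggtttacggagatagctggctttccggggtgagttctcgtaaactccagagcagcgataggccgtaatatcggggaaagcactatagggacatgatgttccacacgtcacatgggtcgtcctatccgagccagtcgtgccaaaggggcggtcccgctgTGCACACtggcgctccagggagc
Mt2: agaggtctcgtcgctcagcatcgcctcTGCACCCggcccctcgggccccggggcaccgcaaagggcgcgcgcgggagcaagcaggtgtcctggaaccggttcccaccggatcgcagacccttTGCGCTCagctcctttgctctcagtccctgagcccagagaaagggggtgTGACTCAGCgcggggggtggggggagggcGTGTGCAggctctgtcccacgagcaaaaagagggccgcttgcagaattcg

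The Mt2 stretch holds the antioxidant response element letters and 3 of the 4 metal response element matches of its window. The Mt1 stretch holds 1 of the 3 metal response element matches of its window, the others lie just after the start, and no antioxidant response element letters were found there. At least 3 metal response element matches were present in 1.97% of the 32851 mouse windows and at least 1 in 25.7%, whereas the antioxidant response element letters were present in 12.4%. The 29 bases around these letters are given for the members with a match upstream of the start, on the plus strand at chr3:122245413-122245441 (Gclm), chr4:116685456-116685484 (Prdx1), chr10:82859104-82859132 (Txnrd1) and chr8:94172529-94172557 (Mt2):
Gclm: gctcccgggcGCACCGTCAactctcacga
Prdx1: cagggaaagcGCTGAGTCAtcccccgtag
Txnrd1: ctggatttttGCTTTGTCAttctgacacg
Mt2: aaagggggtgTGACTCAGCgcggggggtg

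Gclm also held 3 metal response element matches (1 of them overlapping its antioxidant response element letters), Srxn1 held 1 match of each kind (its antioxidant response element letters after the start), and Txnrd1 had a match in 1 of its 3 windows. Slc7a11 had neither motif in its window. Hmox1 and Gclc have no entry in the table used. On GRCm38 with GENCODE vM21, Mt2 (chr8:94172664-94173568) and Mt1 (chr8:94179082-94180327) are neighbours on the plus strand of chromosome 8, which also carries Hmox1 (chr8:75093621-75100589). Gclm (chr3:122245557-122270732) and Slc7a11 (chr3:49892526-50443614, minus strand) are on chromosome 3, Gclc is at chr9:77754535-77794485, Txnrd1 at chr10:82833951-82897712, Srxn1 at chr2:152105516-152111376 and Prdx1 at chr4:116685544-116700822.

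The deposited values are UMI counts (unique molecules) per gene and cell barcode. The libraries held 3355217 to 69765525 UMIs in skin and 28660151 to 137093834 in kidney. Of 31972 skin and 75562 kidney barcodes, 28926 and 66030 passed the filters, and marker genes assigned 85.8% and 95.5% of these to a class. Every fitted class had most of its own markers raised, from 15 of 18 in kidney mononuclear phagocytes upward. The same markers had assigned the cells, so this is no independent check of the class names. The 10 leading genes of skin Schwann cells held as many stromal as Schwann markers (2 each), and those of the distal convoluted tubule held 3 of its own and 2 of the thick ascending limb. The sort was made for PDGFRb+ cells, and stromal cells, the class with the markers of the study's noncanonical pericytes, made up 2.37% to 21.0% of the kept cells of a skin library. In kidney they made up at most 0.536%, and most cells were proximal tubule or leukocytes. Levels are given as CPM, the UMIs of a gene per 1000000 UMIs of a class summed within 1 library, and because each molecule is counted once at its 3′ end they do not scale with gene length. In a class sum, and in all cells together, fewer cells expressing a gene and less RNA per cell cannot be told apart.

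The gene meant to differ by genotype did not follow the labels in all libraries. Mouse Zfyve9 was at 619.6 CPM in the library labelled SARAWT PBS 3, above both SARATg skin libraries (314 and 226 CPM), and at 7.64 to 25.8 CPM in the other SARAWT skin libraries. A human entry for this gene, listed only in the 4 libraries processed with the longer gene list, was at 845 CPM in the library labelled SARAWT PBS 1 and at 89.3 to 190.2 CPM in the other 3. In kidney the library labelled SARAWT AA 1 had 165 CPM against 10.9 to 31.6 CPM in the other SARAWT libraries, and the library labelled SARATg AA 1 had 20.4 CPM against 88.9 and 89.6 CPM in SARATg vehicle. Treatment differences are therefore also given without PBS 1 and 3 and without AA 1. PBS 2 was the smallest library (845 barcodes), and SARAWT vehicle 1 and 2 were the largest (13190 and 11392 barcodes, mostly proximal tubule). Of the PBS 2 barcodes, 55.5% also occurred in another skin library, as did 7.38% in SARAWT PBS 1, 17.6% in SARAWT bleomycin 1 and 22.1% in SARAWT bleomycin 2. In the other skin libraries the share was 0.594% to 0.824%.

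Hmox1 encodes haem oxygenase 1, which opens the haem ring and releases iron, carbon monoxide and biliverdin, and macrophages use it to recycle haem. In skin it was highest in neutrophils, at 1031 ± 358 CPM (SD, n = 8), and in mononuclear phagocytes (macrophages and monocytes together), at 583 ± 477 CPM (SD, n = 8). Neutrophils exceeded phagocytes in 7 of 8 libraries, and phagocytes exceeded mast cells (106 ± 69.1 CPM (SD, n = 7)) in 7 of 7. T cells (5.22 ± 1.99 CPM (SD, n = 7)) and group 2 innate lymphoid cells (3.05 ± 3.39 CPM (SD, n = 6)) were lowest and were not ordered consistently. In kidney the same 2 classes had the highest means, at lower levels, neutrophils with values from 31.8 to 390.5 CPM and mononuclear phagocytes at 93.5 ± 44.5 CPM (SD, n = 9), with neutrophils above phagocytes in only 3 of 9 libraries. Phagocytes exceeded proximal tubule (37.6 ± 17.2 CPM (SD, n = 9)) in 9 of 9.

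Slc7a11, the light chain of the cystine/glutamate antiporter that supplies cysteine for glutathione, was above all a neutrophil gene in both tissues. Its lowest, median and highest levels over the 8 skin libraries were 597, 2165 and 5271 CPM in neutrophils. The next class among those with at least 3 libraries, mononuclear phagocytes, stood at 23.0, 59.4 and 257 CPM and was lower in 8 of 8 libraries. Melanocytes, found in too few libraries to be ranked, held 98 Slc7a11 UMIs of 335788 in the 25 cells of PBS 3. The phagocytes of that library held 2528 of 9831598. T cells and natural killer cells averaged 1.35 and 2.18 CPM. In kidney neutrophils gave 169, 387 and 1766 CPM and mononuclear phagocytes 0.483, 6.52 and 25.5 CPM, again with neutrophils higher in 9 of 9 libraries. Proximal tubule was at 0.439 ± 0.363 CPM (SD, n = 9). Kidney natural killer cells held no Slc7a11 UMI in any of the 9 libraries, where 3 UMIs, the most that a count of 0 allows, would be 35.4 CPM in the shallowest library.

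The 2 subunits of glutamate-cysteine ligase, the first enzyme of glutathione synthesis, were kidney tubule genes. The catalytic subunit Gclc was highest in intercalated cells (300.4 ± 110.4 CPM (SD, n = 9)), proximal tubule (259.8 ± 138 CPM (SD, n = 9)) and distal convoluted tubule (148 to 392 CPM, n = 9), of which proximal and distal tubule were not separated (proximal above distal tubule in 5 of 9 libraries). Its lowest mean was in kidney mononuclear phagocytes, at 22.4 ± 4.35 CPM (SD, n = 9), which dendritic cells exceeded in only 3 of 8 libraries. The modifier subunit Gclm was highest in proximal tubule, at 464 ± 116 CPM (SD, n = 9), above distal convoluted tubule (172 ± 26.2 CPM (SD, n = 9)) in 9 of 9 libraries, and lowest in B cells (29.0 ± 9.63 CPM (SD, n = 9)). In skin both subunits varied less between classes. Gclc ran from 20.2 ± 19.9 CPM (SD, n = 8) in muscle cells to 156 ± 59.2 CPM (SD, n = 6) in group 2 innate lymphoid cells, and Gclm from 21.7 ± 5.75 CPM (SD, n = 8) in dendritic cells to 106 ± 76.7 CPM (SD, n = 8) in neutrophils.

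Txnrd1, the cytosolic thioredoxin reductase, was highest in skin neutrophils (685 ± 188 CPM (SD, n = 8)), then in dendritic cells (404 ± 142 CPM (SD, n = 8)) and mononuclear phagocytes (313 ± 111 CPM (SD, n = 8)), and each of these steps held in 8 of 8 libraries. In kidney it led in proximal tubule (115 ± 24.3 CPM (SD, n = 9)), and neutrophils there ran from 15.2 to 390.5 CPM with a median of 57.7 CPM. Prdx1, a peroxiredoxin that reduces peroxides with electrons from thioredoxin, was expressed in every class. It was lowest in skin neutrophils, which had 60.3 ± 24.9 CPM (SD, n = 8), whereas the other 12 skin classes averaged 368 to 778 CPM. Neutrophils were below the next class, group 2 innate lymphoid cells, in 6 of 6 libraries with both. Kidney neutrophils had 107, 231 and 1494 CPM (lowest, median and highest of 9, the highest from 19 cells of AA 3), and proximal tubule led with 1437 ± 375 CPM (SD, n = 9). Srxn1, sulfiredoxin, which repairs over-oxidized peroxiredoxins, stayed low throughout, at most 31.5 ± 12.3 CPM (SD, n = 8) in skin stromal cells and 64.7 ± 32.8 CPM (SD, n = 9) in kidney distal convoluted tubule, a level shared by intercalated cells (64.0 ± 16.1 CPM (SD, n = 9)).

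The metallothioneins were highest in structural and epithelial cells. Among the ranked skin classes, Mt1 was highest in mural cells (1800.3 ± 1182 CPM (SD, n = 7)), muscle cells (1181 ± 761 CPM (SD, n = 8)), keratinocytes (1088 ± 545 CPM (SD, n = 8)) and stromal cells (1072 ± 623 CPM (SD, n = 8)), whose order was not stable between libraries. Melanocytes, not ranked, held 801 Mt1 UMIs of 335788 in PBS 3 and 62 of 54305 in SARATg bleomycin. Mt2 was highest in muscle cells (696 ± 516 CPM (SD, n = 8)), keratinocytes (667 ± 332 CPM (SD, n = 8)) and stromal cells (604 ± 369 CPM (SD, n = 8)), also without a stable order. T cells had the lowest means for both, at 47.5 ± 14.6 CPM (SD, n = 7) for Mt1 and 9.88 ± 3.67 CPM (SD, n = 7) for Mt2, but group 2 innate lymphoid cells exceeded them in only 2 of 6 libraries. In kidney the thick ascending limb (4686 ± 3186 CPM (SD, n = 9)) and distal convoluted tubule (4435 ± 2354 CPM (SD, n = 9)) carried the highest Mt1, the latter above intercalated cells (1277 ± 1091 CPM (SD, n = 9)) in 9 of 9 libraries. Proximal tubule, the class with the most cells, had only 81.1 ± 92.2 CPM (SD, n = 9).

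**Figure D1:**
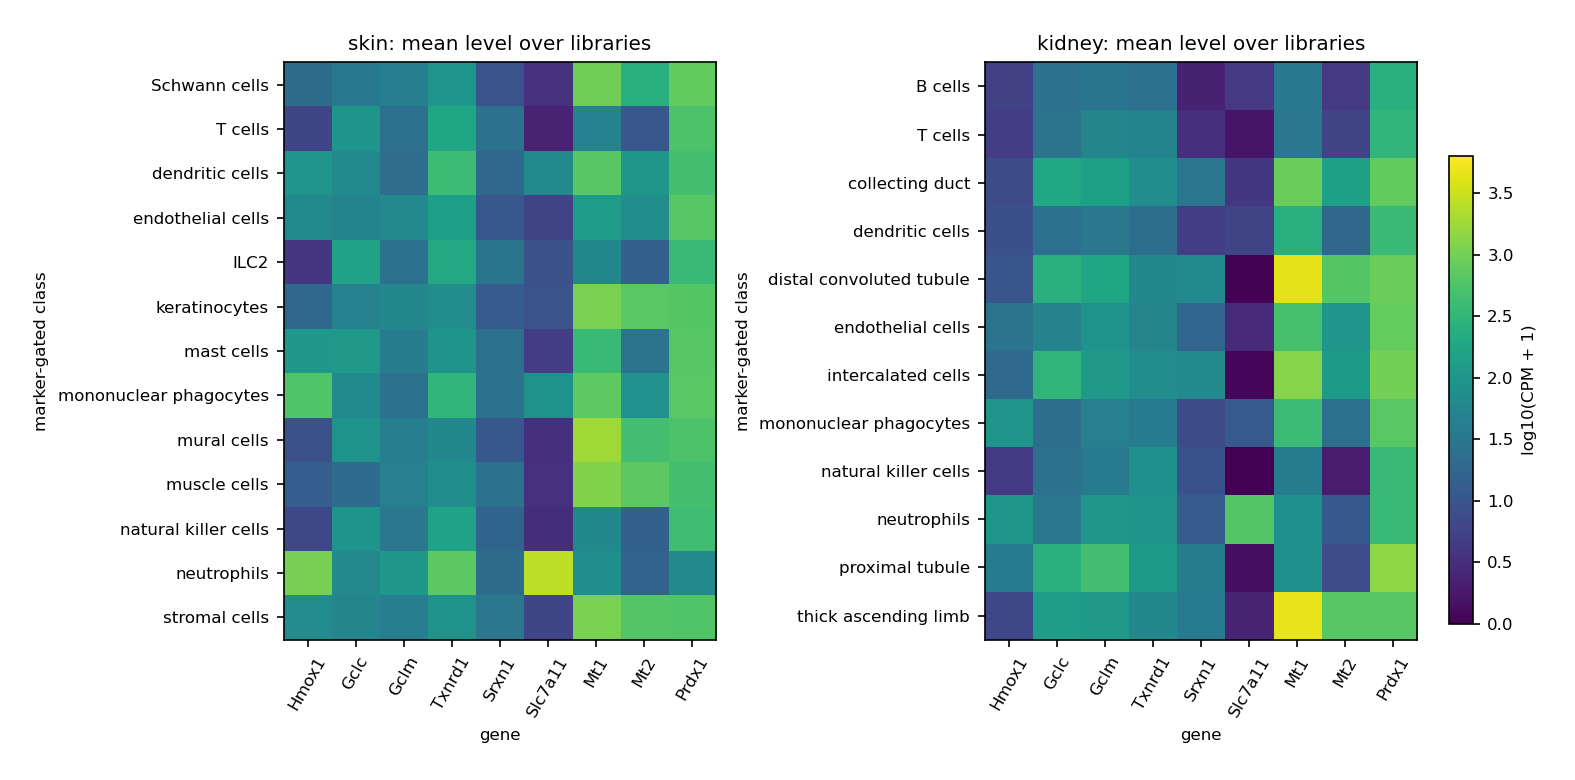
Mean level of each member (columns) in each marker-gated class (rows) of skin (left) and kidney (right), as log10(CPM + 1) averaged over the libraries with at least 10 cells of the class. Slc7a11 is bright in the neutrophil rows, Hmox1 in skin neutrophils and mononuclear phagocytes, Mt1 in the thick ascending limb and distal convoluted tubule, and the skin minimum of Prdx1 is in neutrophils.

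Levels of 2 abundant classes were compared within each library by an exact sign-flip permutation test (two-sided, log2 ratio of CPM with 10 CPM added, adjusted over all genes tested). In skin, mononuclear phagocytes differed from stromal cells for 5 of the 9 members, where 68.1% of the 9313 genes tested differed (29.6% higher in phagocytes). Hmox1 (mean log2 ratio 2.67 ± 0.99, SD, n = 8), Slc7a11 (2.34 ± 1.12) and Txnrd1 (1.64 ± 0.39) were higher in phagocytes, and Gclm (-0.53 ± 0.30) and Mt2 (-2.80 ± 1.21) were lower, each in 8 of 8 libraries (adjusted p = 0.0144, exact permutation test). This is the smallest p that 8 libraries allow, 0.0078125 before adjustment. Prdx1 (0.17 ± 0.22, adjusted p = 0.085, exact permutation test), Mt1 (-0.44 ± 1.06), Gclc (0.19 ± 0.45) and Srxn1 (-0.16 ± 0.52) did not pass. The Mt1 ratio ranged from -1.69 to 1.74 between libraries, and the library labelled PBS 1 had the largest phagocyte value of Mt1 and the smallest stromal value.

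In kidney, mononuclear phagocytes differed from proximal tubule for all 9 members in 9 of 9 libraries (adjusted p = 0.00586, exact permutation test, where 79.6% of the 9441 genes tested differed, 37.2% being higher in phagocytes). Lower in phagocytes were Gclm by a log2 ratio of -3.14 ± 0.38 (SD, n = 9), Gclc of -2.92 ± 0.68, Srxn1 of -1.45 ± 0.38, Txnrd1 of -1.39 ± 0.27 and Prdx1 of -1.06 ± 0.52. Mt1 (2.43 ± 0.80), Hmox1 (1.10 ± 0.54), Slc7a11 (0.87 ± 0.62) and Mt2 (0.80 ± 0.55) were higher in phagocytes. The Slc7a11 ratio was held down by the 10 CPM added, and with 1 CPM added it was 2.59.

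Over the 26 class means of both tissues, the genes with the pattern most like Slc7a11 among 8807 were Trem1 (Pearson r = 0.97) and Clec4d (r = 0.97), of which Trem1 was itself a marker of the neutrophil gate. Mt1 and Mt2 were most like each other (r = 0.92), followed by Deptor for Mt1 (r = 0.83) and Nfix for Mt2 (r = 0.87). Srxn1 was close to Gabarapl1 (r = 0.83) and to Gclc (r = 0.81), while Hmox1 was closest to Sh2b2 (r = 0.88) and Tlr2 (r = 0.87). Gclc was nearest to Pip4k2c (r = 0.87) and Sacm1l (r = 0.83), Gclm to the mitochondrial proline enzymes Aldh4a1 (r = 0.88) and Prodh (r = 0.87), Txnrd1 to Abtb2 (r = 0.85) and Tgif1 (r = 0.84), and Prdx1 to 2610507B11Rik (r = 0.88) and Lmbrd2 (r = 0.87). Between members the correlation ran from -0.59 (Slc7a11 with Prdx1) to 0.92, and Hmox1 with Slc7a11 gave 0.78. Class means of a tissue come from the same libraries, so these correlations are given as descriptions.

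The first comparison asked whether these genes differed between bleomycin-treated and PBS-treated SARAWT skin. No member passed the threshold in any class or in all cells together, and most estimates for the metallothioneins, Gclc and Hmox1 lay below PBS. Of 117 member-by-class combinations (9 genes in 12 classes and in all cells), 88 had enough UMIs to be tested, and 0 had an adjusted p under 0.05 (edgeR, where 0.729% of all gene tests did). An unadjusted p under 0.05 was reached by 20 (2 higher and 18 lower with bleomycin), against 13.1% of all tests, and DESeq2 on the same sums called 5, beside 3.49% of all tests. The PBS and bleomycin values did not overlap in 19 of the 88, beside 21.9% of all tests. Without the library labelled PBS 3, where 2.41% of all tests passed, 7 member tests did (Mt2 and Hmox1 in all cells, Mt1, Mt2 and Hmox1 in mononuclear phagocytes, Mt1 and Mt2 in Schwann cells), all lower with bleomycin.

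Mt2 had the lowest adjusted p. In all cells together it was at 239, 343 and 349 CPM in the PBS libraries and 113, 94.7 and 119 CPM in the bleomycin libraries (log2 fold change -1.38, SE 0.23, adjusted p = 0.0627, edgeR). Every bleomycin value lay below every PBS value, and 23.4% of the genes tested there were separated likewise. In this fit the deviations of libraries with the same number correlated (r = 0.27, 0.13 and 0.53). Bleomycin 2 was closer to PBS 1 (r = 0.19) than to PBS 2, so pairing by number was not settled. With the number as a block Mt2 passed (-1.35, adjusted p = 0.0309, edgeR). Without PBS 1 and 3, whose Zfyve9 went against the label, the estimate was -1.46 (adjusted p = 0.101, with PBS 2 as the lone control, assumed to vary like the other libraries). The mix of classes differed between these libraries, stromal cells for example making up 16.6, 19.6 and 7.51% of the PBS and 7.30, 9.54 and 2.37% of the bleomycin libraries, and its part in the Mt2 difference was not tested.

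Mt2 lay below PBS in all 10 classes fitted. Mononuclear phagocytes had 216, 93.4 and 73.5 CPM with PBS and 31.8, 26.4 and 36.3 CPM with bleomycin (log2 fold change -1.91, SE 0.37, adjusted p = 0.29). The groups were separated, as were 14.9% of the genes tested in phagocytes. Schwann cells had 472, 380.4 and 159 CPM with PBS and 142, 116 and 161 CPM with bleomycin (log2 fold change -1.11, SE 0.35, adjusted p = 0.0985), where PBS 3 lay among the bleomycin values. In stromal cells the PBS libraries themselves spread from 223 CPM (PBS 1) to 1211 CPM (PBS 3), around the bleomycin values of 369, 358 and 623 CPM (log2 fold change -0.76, SE 0.56, adjusted p = 0.43). Leaving out 1 library at a time, the phagocyte estimate ranged from -2.16 to -1.35, and it passed only without PBS 3 (adjusted p = 0.0172).

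Mt1 lay below PBS in 10 of 13 fits. In mononuclear phagocytes its level was 1278, 1194 and 543 CPM with PBS and 514, 554 and 416 CPM with bleomycin (log2 fold change -0.92, SE 0.30, adjusted p = 0.459), and PBS 3 was within the bleomycin range. The same library was the low one in Schwann cells, which had 1621, 1648 and 557 CPM with PBS and 567, 328 and 516 CPM with bleomycin (log2 fold change -1.30, SE 0.38, adjusted p = 0.0799). Endothelial cells gave 193, 103 and 446 CPM against 63.6, 17.0 and 29.1 CPM (log2 fold change -2.82, SE 0.65, adjusted p = 0.0985), from 49, 8 and 190 UMIs in 72, 15 and 56 cells with PBS and only 5, 1 and 6 UMIs in 15, 13 and 33 cells with bleomycin. These 2 sets did not overlap, nor did 18.6% of the genes tested in that class. T cells went the other way at a low level, with 40.8 and 33.9 CPM in the 2 PBS libraries tested and 72.3, 61.7 and 44.3 CPM with bleomycin (log2 fold change 0.77, SE 0.31, adjusted p = 0.803). Mural cells, with 2609, 3810.4 and 2182 CPM against 1793 and 962 CPM in the 2 bleomycin libraries tested, did not pass (log2 fold change -1.02, SE 0.33, adjusted p = 0.252). Mural Mt1 did pass in the fit blocked by replicate number (-1.10, adjusted p = 0.0336), where pairing by number was not shown. Bleomycin 1 had too few mural cells, so PBS 1 had no partner and did not enter the blocked estimate. That estimate set bleomycin 2 and 3 (70 and 57 Mt1 UMIs from 10 and 11 cells) against PBS 2 and 3.

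Hmox1 lay below PBS in 6 of 7 fits, and its groups were separated in phagocytes and dendritic cells without passing the threshold. In mononuclear phagocytes it was at 1203, 1474 and 399 CPM with PBS and 281, 336 and 298 CPM with bleomycin (log2 fold change -1.64, SE 0.41, adjusted p = 0.354). PBS 1 and 2 stood far above, and PBS 3 was closest to the bleomycin libraries. In dendritic cells the levels were 46.3, 364 and 119 CPM and 21.5, 39.1 and 37.5 CPM (log2 fold change -2.33, SE 0.66, adjusted p = 0.263), where 19.7% of the genes were separated, and the highest of them came from the 86 dendritic cells of PBS 2. The phagocyte estimate ranged from -1.99 to -1.26 when 1 library was left out and passed only without PBS 3 (adjusted p = 0.00428). In all cells together Hmox1 was at 388, 523 and 179 CPM with PBS and 149, 149 and 179 CPM with bleomycin (log2 fold change -1.02, SE 0.34, adjusted p = 0.18), with PBS 3 within the bleomycin range. Without PBS 1 and 3 the phagocyte estimate was -2.15 (adjusted p = 0.111).

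The phagocyte class mixed cells that matched the macrophage markers best with cells that matched the monocyte markers best. The macrophage share was 94.2, 84.8 and 52.0% in the PBS libraries and 78.4, 78.0 and 60.1% in the bleomycin libraries. Among macrophage-list cells Hmox1 stood at 1297, 1621 and 521 CPM with PBS and 317, 386 and 374 CPM with bleomycin. The groups were separated there, as were 19.7% of the genes with a mean of at least 10 CPM in these cells. Among monocyte-list cells it was at 87.3, 93.3 and 277 CPM and 176, 211 and 192 CPM, with bleomycin inside the PBS range. Mt2 in macrophage-list cells was at 224, 100.4 and 107 CPM and 33.4, 19.6 and 38.1 CPM, also separated, and in monocyte-list cells at 111, 26.7 and 40.5 CPM and 27.2, 43.4 and 33.8 CPM, which overlapped (the PBS 2 value there is 2 UMIs from 25 cells). Mt1 in macrophage-list cells was at 1352, 1263 and 843 CPM and 527, 567 and 521 CPM, separated as well, whereas in monocyte-list cells it was at 395, 546 and 244 CPM and 476, 521 and 269.8 CPM and overlapped.

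In neutrophils, Slc7a11 had 2447, 5271 and 3815 CPM with PBS and 1781, 1832 and 1884 CPM with bleomycin (log2 fold change -0.99, SE 0.35, adjusted p = 0.751). The 3 bleomycin values lay close together and below all PBS values, from 31, 13 and 296 cells with PBS and 89, 19 and 1249 with bleomycin, and 12.3% of the genes tested in neutrophils were separated. Gclc lay below PBS in all 10 fits. In mast cells, for example, it was at 128 and 189 CPM in the 2 PBS libraries tested (58 and 60 UMIs). With bleomycin it was at 92.3, 64.0 and 50.2 CPM in these cells, from only 5, 7 and 5 UMIs. Its estimates there (log2 fold change -1.33, SE 0.42, adjusted p = 0.999), in dendritic cells (log2 fold change -1.10, SE 0.46, adjusted p = 0.38) and in keratinocytes (log2 fold change -1.07, SE 0.47, adjusted p = 0.396) did not pass. Gclm was split, with 7 fits below and 4 above PBS.

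Txnrd1 lay below PBS in 10 of 12 fits. Schwann cells had 183, 101 and 121 CPM with PBS and 57.0, 32.8 and 82.4 CPM with bleomycin (log2 fold change -1.07, SE 0.35, adjusted p = 0.103), and keratinocytes had 95.4, 130.0 and 133 CPM and 14.2, 49.8 and 63.1 CPM (log2 fold change -1.27, SE 0.40, adjusted p = 0.247). Both pairs were separated, as were 28.9% of the genes tested in Schwann cells and 17.9% in keratinocytes. In neutrophils, where Txnrd1 was highest, the estimate was close to 0 (log2 fold change -0.014, SE 0.34, adjusted p = 0.996). Prdx1 in stromal cells was at 542, 493 and 483 CPM with PBS and 750.2, 643 and 656 CPM with bleomycin (log2 fold change 0.46, SE 0.18, adjusted p = 0.163). These groups were separated, as were 30.03% of the genes in stromal cells, and in other classes Prdx1 estimates lay on either side of 0. Srxn1 was at 16.8, 24.9 and 43.7 CPM with PBS and 37.1, 34.0 and 26.2 CPM with bleomycin in stromal cells (log2 fold change 0.17, SE 0.40, adjusted p = 0.826), and none of its 6 fits had an unadjusted p under 0.05.

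**Figure D2:**
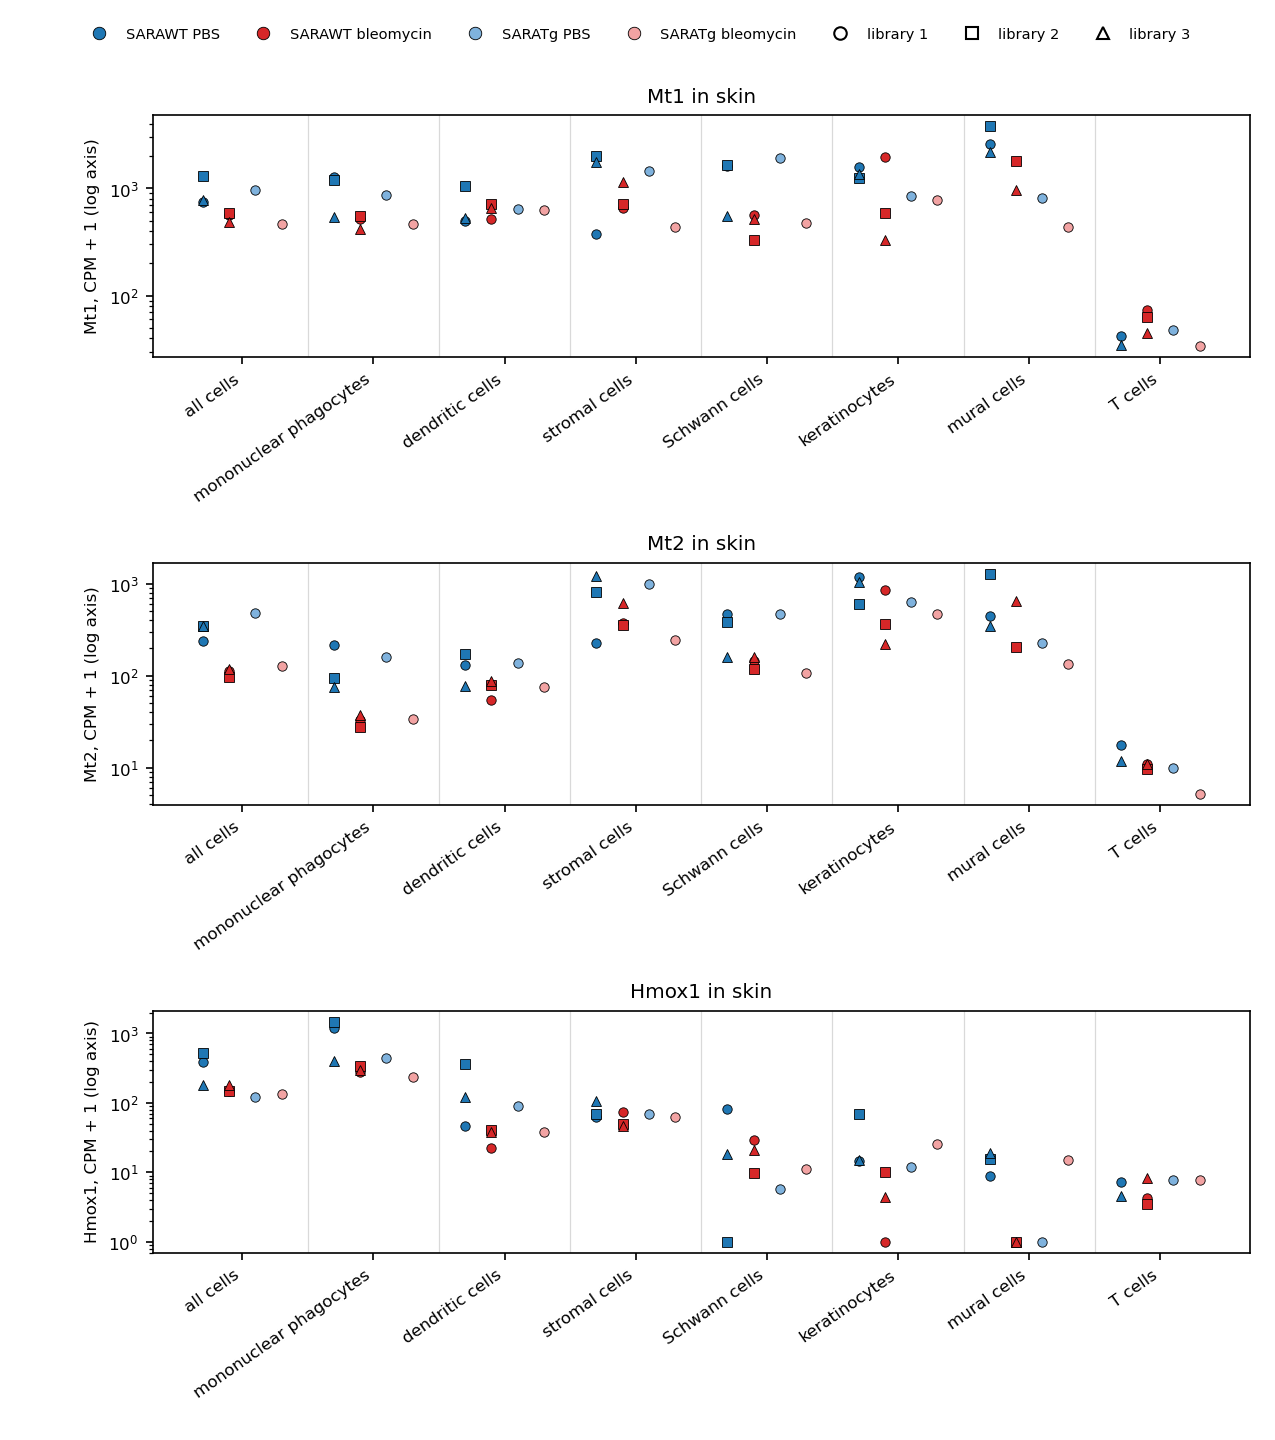
Levels of Mt1, Mt2 and Hmox1 (1 panel each, CPM + 1 on a log axis) in 7 classes and in all cells of the 8 skin libraries, where each point is 1 library, colour gives genotype and treatment and shape the library number. The SARAWT bleomycin values of Mt2 in all cells lie between 94.7 and 119 CPM, below the 3 SARAWT PBS values (239 to 349 CPM), and the PBS 3 triangle is the lowest SARAWT PBS point of the phagocytes in each panel.

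Bleomycin and PBS libraries 1 and 2 shared one Cell Ranger version and gene list, and the others shared another. For the 20 gene and class pairs with an unadjusted p under 0.05, the ratio kept its sign in all 20 in the first set (2 against 2 libraries, fewer where a class had under 10 cells), in 17 of 20 between bleomycin 3 and PBS 3, and in 17 of 20 between the SARATg libraries. These pairs were picked by the SARAWT fits, which share those SARAWT libraries, so only the SARATg count comes from other samples. Mt2 in all cells gave log2 ratios of -1.41, -1.48 and -1.85 in the 3 sets. Hmox1 in phagocytes gave -2.08, -0.41 and -0.90. The exceptions in the second set were Hmox1 in all cells, Mt2 in Schwann cells and Mt2 in dendritic cells. Between the SARATg libraries they were Mt1 in T cells (-0.41), Hmox1 in all cells (0.10) and Gclc in keratinocytes (0.093).

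Without PBS 1 and 3, whose Zfyve9 went against the label, PBS 2 was the lone control. PBS 2 itself held the human entry at 190.2 CPM, above bleomycin 1 and 2 (89.3 and 114.8 CPM), and 55.5% of its barcodes occurred in another skin library. Of these 20 pairs, 17 could be fitted. The estimate kept its sign in 16 and passed in 0, where the lowest adjusted p was 0.0981. Mt1 then had log2 fold changes of -1.05 in all cells, -1.15 in mononuclear phagocytes, -1.57 in Schwann cells and -1.38 in mural cells, and Mt2 of -1.44 in mononuclear phagocytes, -1.20 in Schwann cells and -1.17 in dendritic cells. Hmox1 was at -1.51 in all cells and -3.39 in dendritic cells, and Txnrd1 at -0.50 in Schwann cells and -1.40 in keratinocytes. Gclc in dendritic cells was at -1.71, Slc7a11 in neutrophils at -1.02 and Prdx1 in stromal cells at 0.49, while Gclc in keratinocytes turned to 1.22.

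SARATg skin had 1 library for each treatment, so its values have no replicate check and the intervals (exact Poisson, 95%) cover counting error only. Mt2 in all cells was at 483 CPM (478 to 489) with PBS and 127 CPM (124 to 129) with bleomycin. In phagocytes, Hmox1 was at 440.4 CPM (424 to 457) and 232 CPM (225 to 239), and Mt1 at 874 CPM (851 to 897) and 464 CPM (455 to 474). Slc7a11 in neutrophils was at 3802 CPM (3359.5 to 4286) and 597 CPM (556 to 639), the latter the lowest of the 8 libraries. With these libraries added and genotype as a covariate, 6 member tests passed in place of 0, beside 4.08% of all tests.

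**Figure D3:**
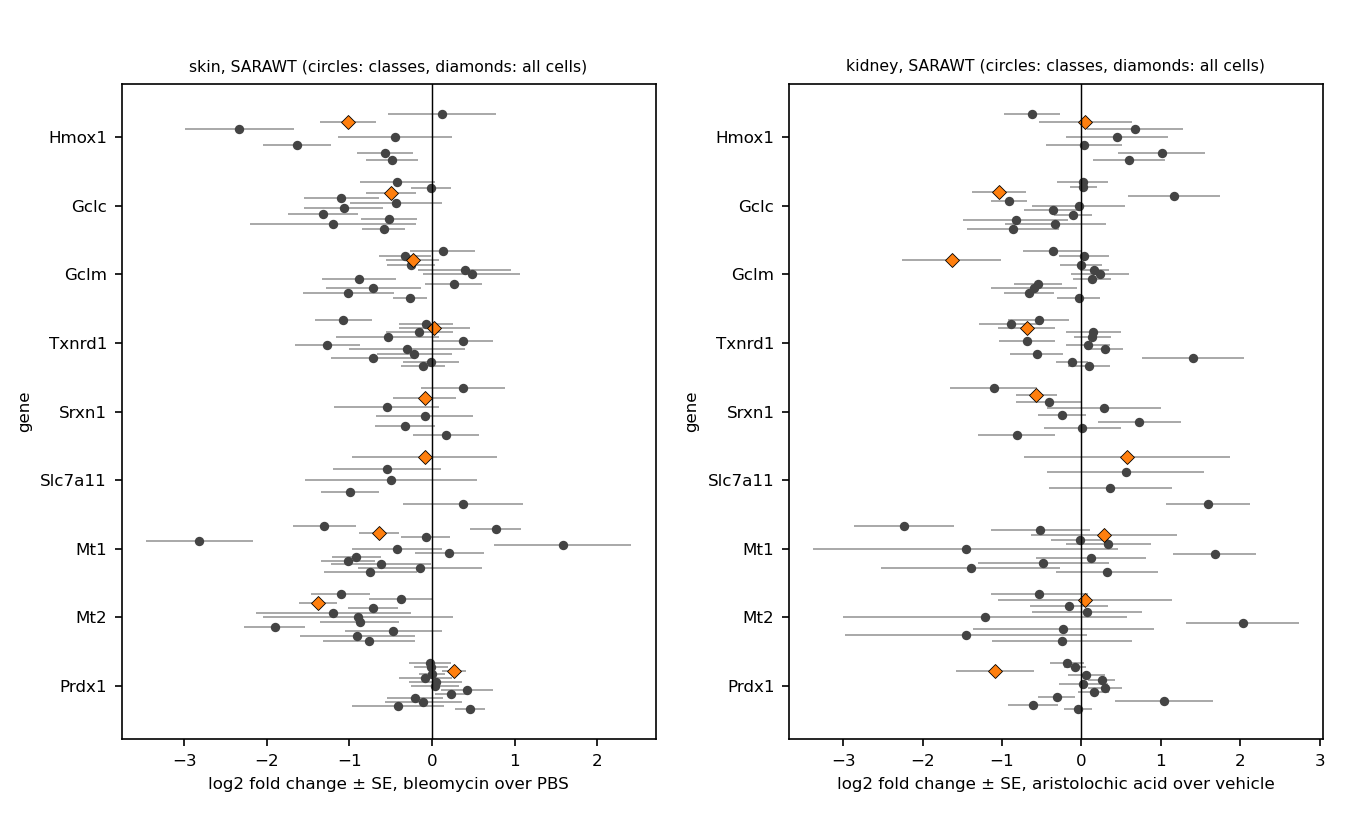
Log2 fold change with its standard error for each member in each fitted class (circles) and in all cells (diamonds), for bleomycin over PBS in skin (left) and AA over vehicle in kidney (right), SARAWT libraries only. In skin all Mt2 and Gclc estimates lie left of 0, whereas in kidney the estimates of Mt1 and Mt2 lie on either side.

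Other genes of the pathway were counted in the same fits, which used the same libraries. Of the 8 regulators of Nrf2, 90 gene-by-class tests in skin gave 0 higher and 4 lower with bleomycin (median log2 fold change -0.32), where 0.729% of all skin tests passed. In Schwann cells Bach1, the repressor that competes for Nrf2 sites, fell from 408, 469 and 393 CPM to 158, 116 and 187 CPM (log2 fold change -1.33, SE 0.24, adjusted p = 0.0184). Nfe2l2, which encodes Nrf2 itself, fell there from 156, 216 and 182 CPM to 76.3, 56.7 and 94.3 CPM (log2 fold change -1.11, SE 0.26, adjusted p = 0.0429). In stromal cells the small Maf genes Maff (log2 fold change -1.10, SE 0.18, adjusted p = 0.0259) and Mafk (log2 fold change -1.44, SE 0.29, adjusted p = 0.0398) fell. Maff in SARATg stromal cells was at 47.3 CPM with PBS, inside the range of the SARAWT bleomycin libraries (43.3, 48.6 and 48.3 CPM) and below that of SARAWT PBS (96.1, 109 and 101 CPM), and at 40.0 CPM with bleomycin. In Schwann cells 4.08% and in stromal cells 3.66% of all genes tested passed.

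Of 20 further Nrf2 targets, 3 of 158 tests were higher and 0 lower (median 0.13). The oxidoreductase gene Akr1b8 rose in stromal cells from 15.0, 24.9 and 24.0 CPM to 117, 98.4 and 86.1 CPM (log2 fold change 2.30, SE 0.29, adjusted p = 0.0156). Txn1, the thioredoxin that Txnrd1 reduces, rose in stromal cells (log2 fold change 1.22, SE 0.26, adjusted p = 0.0435) and in Schwann cells (log2 fold change 1.11, SE 0.25, adjusted p = 0.0381). Among 16 other peroxiredoxin, thioredoxin, glutathione peroxidase and related genes, 1 of 148 tests was higher and 0 lower (median 0.16), namely Prdx4, the peroxiredoxin of the endoplasmic reticulum, in Schwann cells (log2 fold change 1.16, SE 0.26, adjusted p = 0.0364). Metal handling genes (46 tests, median -0.29), haem breakdown and iron export genes (42 tests, median 0.080) and Atf4 targets (69 tests, median -0.11) had 0 calls. These counts of calls stand beside 0.729% of all skin tests with an adjusted p under 0.05 (edgeR). Unadjusted p-values under 0.05 numbered 16 of 90 tests for the regulators, 30 of 158 for the further targets, 30 of 148 for the peroxiredoxin and related genes, 12 of 46 for metal handling, 10 of 42 for haem breakdown and 15 of 69 for Atf4 targets, beside 13.1% of all skin tests. The median over all genes was -0.011 in Schwann cells and -0.022 in stromal cells. Each of the 8 calls kept its sign in 18 of 18 alternatives and passed in 9 to 13 of them. In some alternatives few genes of any kind passed. The share of all skin tests was 0.0843% with shared barcodes left out, 0.145% with the stricter gate and 0.0404% without bleomycin 1. Without PBS 1 and 3 none of the 8 passed, with log2 fold changes of -1.35 for Bach1 and -1.23 for Nfe2l2 in Schwann cells, -1.20 for Maff and -1.35 for Mafk, 2.04 for Akr1b8, 1.47 and 0.87 for Txn1 in stromal and Schwann cells and 1.20 for Prdx4, and adjusted p from 0.111 to 0.333. For Akr1b8 in stromal cells the adjusted p ran from 1.54e-08 to 0.111 over these alternatives.

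The second comparison asked the same of AA and vehicle in SARAWT kidney. No member passed the threshold. Of 108 member-by-class combinations 85 could be tested, 0 had an adjusted p under 0.05 (edgeR, where 0.00509% of all gene tests did) and 8 had an unadjusted p under 0.05 (4 higher and 4 lower with AA), against 7.21% of all tests. DESeq2 called 0, beside 0.264% of all tests. The groups did not overlap in 8 of the 85, beside 14.0% of all tests. Without vehicle 3, where 4.68% of all tests passed, 9 member tests did. Both metallothioneins in the thick ascending limb, distal convoluted tubule and intercalated cells and Mt2 in all cells were then higher with AA, and Gclm in all cells and Txnrd1 in T cells were lower. The vehicle libraries differed from each other. Proximal tubule made up 83.6, 74.6 and 17.7% of their cells and 8.85, 36.5 and 14.5% of those of the AA libraries, and in vehicle 3 T cells made up 44.5%.

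Metallothionein levels set vehicle 3 apart from vehicle 1 and 2. In the thick ascending limb Mt1 was at 1655, 1794 and 11105 CPM with vehicle and 7169.8, 5561 and 5381 CPM with AA (log2 fold change 0.32, SE 0.64, adjusted p = 0.922). The AA values lay between vehicle 1 and 2 on one side and vehicle 3 on the other. Distal convoluted tubule showed the same order, with 1962, 2620.0 and 8879 CPM and 6359.5, 5902 and 5216 CPM (log2 fold change 0.34, SE 0.53, adjusted p = 0.806). Mt2 followed Mt1, at 141, 160.3 and 2280.1 CPM with vehicle and 1035, 528 and 603 CPM with AA in the thick ascending limb (log2 fold change -0.25, SE 0.88, adjusted p = 0.96). Vehicle 3 had 36 cells of the thick ascending limb and 33 of the distal convoluted tubule. Without it, Mt1 and Mt2 passed in both classes (Mt1 in the thick ascending limb 2.00, adjusted p = 0.000699). With vehicle 3 and the SARATg libraries kept and vehicle 1 and 2 left out, the Mt1 estimates were 0.0086 and -0.24.

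Intercalated cells, which move acid in the collecting duct, gave the largest positive metallothionein estimates of the kidney. Mt1 there was at 484, 412 and 1407 CPM with vehicle and 1148, 2008 and 3815 CPM with AA (log2 fold change 1.68, SE 0.53, adjusted p = 0.201). The highest vehicle value, from the 19 cells of vehicle 3, exceeded the lowest AA value. Mt2 was at 35.4, 20.4 and 156 CPM and 113, 127 and 358 CPM (log2 fold change 2.03, SE 0.71, adjusted p = 0.249). With the replicate number as a block both passed (adjusted p = 0.0136 for Mt1 and 0.0147 for Mt2), but pairing by number was not shown in kidney. Leaving out AA 1, whose Zfyve9 went against the label, gave 2.02 for Mt1 (adjusted p = 0.0839) and 2.36 for Mt2 (adjusted p = 0.146). Without vehicle 1 and 2 and with the SARATg libraries added, Mt1 was at 0.25 and Mt2 turned to -0.50. Without AA 3, the highest library for both, the estimates were 1.08 (adjusted p = 0.525) and 1.21 (adjusted p = 0.553). Without vehicle 3 they were 2.54 (adjusted p = 0.0480, edgeR) and 3.14 (adjusted p = 0.0441, edgeR). With the stricter filter on cells they were 2.69 and 3.42 and did not pass (adjusted p = 0.143 for each, edgeR).

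Vehicle 3 also had the highest SARAWT value in other classes. Endothelial cells had Mt1 at 27.9, 11.9 and 3050.0 CPM with vehicle and 686 and 12.6 CPM in the 2 AA libraries tested (log2 fold change -1.45, SE 1.92, adjusted p = 0.999). Proximal tubule had 9.61, 33.7 and 303 CPM and 72.0, 26.5 and 53.3 CPM (log2 fold change -1.40, SE 1.13, adjusted p = 0.603), and B cells 25.5, 22.6 and 168 CPM and 23.0, 13.4 and 16.0 CPM (log2 fold change -2.24, SE 0.63, adjusted p = 0.761). Without vehicle 3 the estimate turned to 4.41 in endothelial cells and 1.10 in proximal tubule, and was -0.54 in B cells, none of them past the threshold. In vehicle 3 the thick ascending limb marker Umod was at 1.99 CPM in endothelial cells and had 0 UMIs in natural killer cells (3 UMIs there are 12.8 CPM), where Mt1 was at 230.0 CPM. Umod in vehicle 3 was at 1.73 CPM in B cells, the lowest SARAWT value, and at 9.04 CPM in proximal tubule, above vehicle 1 and 2 (2.38 and 5.69 CPM). The distal convoluted tubule marker Slc12a3 in vehicle 3 was at 20.8 CPM in B cells and 6.81 CPM in proximal tubule, the highest SARAWT values, and at 0 CPM in endothelial cells. In the other SARAWT libraries Umod in endothelial cells was at 9.53 to 61.6 CPM. The highest of these was AA 1, which also had the second-highest endothelial Mt1, and the part of free tubular RNA in the Mt1 values was not tested.

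**Figure D4:**
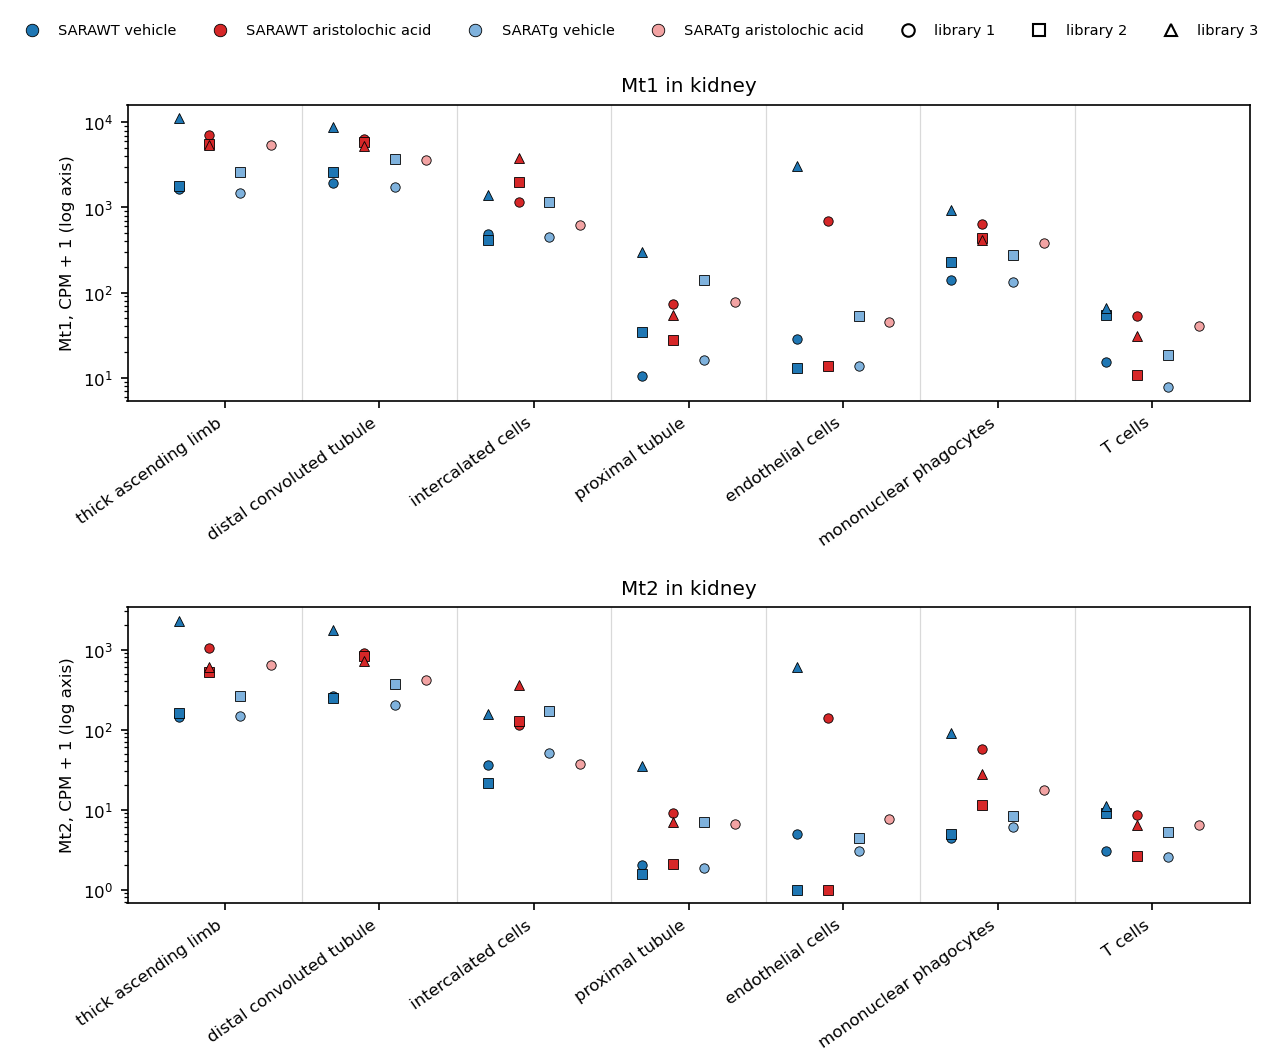
Levels of Mt1 and Mt2 (1 panel each, CPM + 1 on a log axis) in 7 classes of the 9 kidney libraries, where each point is 1 library, colour gives genotype and treatment and shape the library number. Vehicle 3 holds the highest Mt1 in the thick ascending limb (11105 CPM), and vehicle 1 and 2 (1655 and 1794 CPM) lie below the 3 AA libraries.

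Slc7a11 lay above vehicle in all 4 kidney fits. In neutrophils it was at 234, 169 and 525 CPM with vehicle and 387, 1155 and 1766 CPM with AA (log2 fold change 1.59, SE 0.53, adjusted p = 0.446). Vehicle 3 exceeded AA 1, and the 2 highest values came from 26 and 19 cells (AA 2 and AA 3). In AA 3 the same 19 cells also carried the highest neutrophil values of Hmox1 (390.5 CPM), Txnrd1 (390.5 CPM) and Prdx1 (1494 CPM, against 107 to 346 CPM in the other 8 libraries). Without AA 3 the Slc7a11 estimate was 0.99. The skin neutrophil estimate had the other sign, and the difference between the tissues, which were separate experiments with different agents, was not tested.

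**Figure D5:**
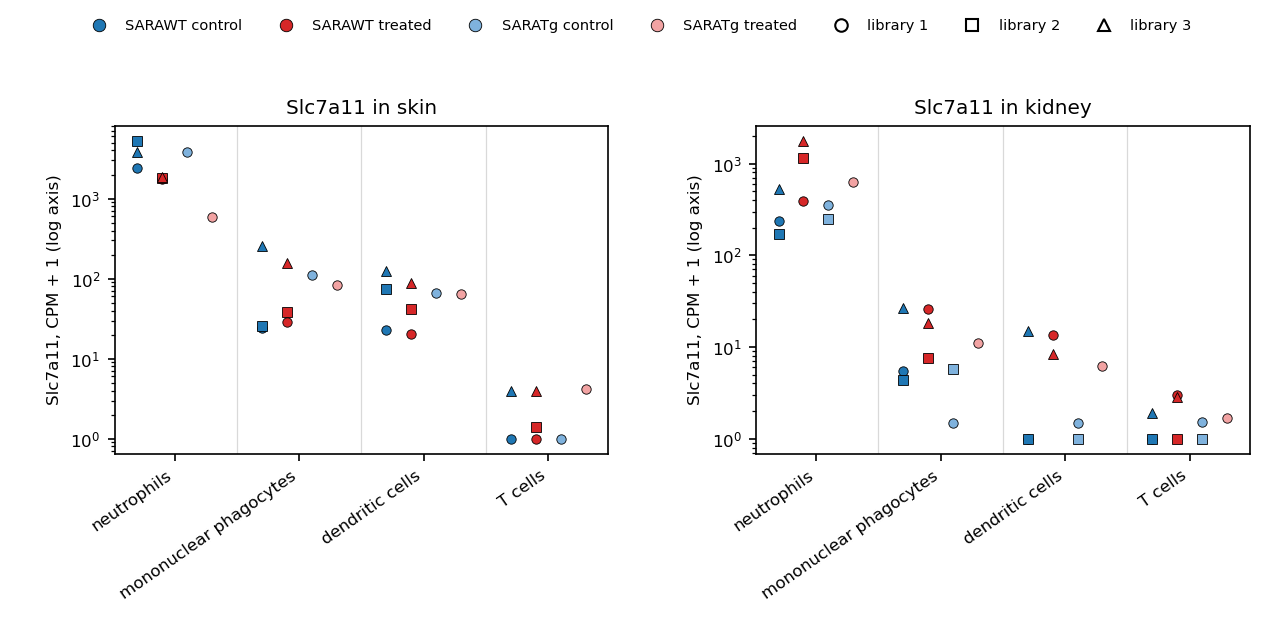
Slc7a11 level (CPM + 1 on a log axis) in neutrophils, mononuclear phagocytes, dendritic cells and T cells of each library of skin (left) and kidney (right), where control is PBS or vehicle, treated is bleomycin or AA, and each point is 1 library. In neutrophils the SARAWT bleomycin libraries lie between 1781 and 1884 CPM, below the SARAWT PBS libraries, and the 3 SARAWT AA libraries run from 387 to 1766 CPM with AA 2 and AA 3 above the vehicle libraries.

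Gclc lay above vehicle in 3 fits and below in 8, and Gclm in 4 and 7, and neither passed in any. Gclc in distal convoluted tubule was at 335, 303 and 392 CPM with vehicle and 203, 148 and 168 CPM with AA (log2 fold change -0.91, SE 0.22, adjusted p = 0.198). The groups were separated, as were 16.5% of the genes there. In all cells together Gclc was at 169.6, 115 and 189.6 CPM and 90.8, 99.6 and 62.8 CPM (log2 fold change -1.04, SE 0.34, adjusted p = 0.492) and Gclm at 667, 359 and 179.6 CPM and 112, 218 and 103 CPM (log2 fold change -1.63, SE 0.62, adjusted p = 0.492). Both genes were highest in tubule classes, whose share differed between these libraries, and the part of that share in these values was not tested. Within proximal tubule Gclm was at 714, 414 and 482 CPM and 475, 366 and 319 CPM (log2 fold change -0.66, SE 0.32, adjusted p = 0.514). Hmox1 lay above vehicle in 6 of 7 fits, with proximal tubule at 34.7, 13.5 and 45.3 CPM and 63.9, 40.9 and 59.5 CPM (log2 fold change 0.60, SE 0.46, adjusted p = 0.585). Txnrd1 in T cells was at 85.0, 105 and 26.3 CPM and 35.6, 29.5 and 33.8 CPM (log2 fold change -0.89, SE 0.40, adjusted p = 0.944) and passed without vehicle 3 (-1.30, adjusted p = 0.0353), whereas without vehicle 1 and 2 and with the SARATg libraries added it was -0.0064. In neutrophils Txnrd1 was at 78.0, 34.1 and 58.2 CPM with vehicle and 78.2, 57.7 and 390.5 CPM with AA (2.64-fold in the fit, unadjusted p = 0.0467, adjusted p = 0.852, edgeR), the highest value coming from the 19 cells of AA 3. Txnrd1 and Prdx1 were split evenly, with 6 fits on each side, and Srxn1 had 3 above and 5 below. The 6 lists of other pathway genes had 0 calls in kidney in either direction.

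Without AA 1, whose Zfyve9 went against the label, 18 of the 19 kidney pairs followed through the alternatives could be fitted, of which 17 kept their sign and 0 passed. Mt1 then had log2 fold changes of 0.18 in the thick ascending limb, 0.30 in distal convoluted tubule, -1.74 in proximal tubule and -2.45 in B cells. In endothelial cells the AA arm was then AA 2 alone, with 22 cells, 1 UMI of Mt1 and 0 of Mt2. No size of fold is read from these counts, although both metallothioneins are among the 17 pairs counted as keeping their sign. Mt2 was at -0.59 in the thick ascending limb and -0.27 in all cells, the latter being the pair that changed sign. Slc7a11 in neutrophils was at 2.06, Gclc in distal convoluted tubule at -1.01, Gclc and Gclm in all cells at -1.09 and -1.48, and Txnrd1 in T cells at -0.92.

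SARATg kidney had 2 vehicle libraries and 1 AA library, given with no test. In the thick ascending limb Mt1 was at 1495 CPM (1409 to 1586) and 2602 CPM (2518 to 2688) with vehicle and 5410.3 CPM (5311 to 5511) with AA. In intercalated cells it was at 450.4 CPM (404 to 500.2) and 1151 CPM (1037 to 1274) with vehicle and 613 CPM (573 to 656) with AA, between the vehicle values. Neutrophil Slc7a11 was at 357 CPM (262 to 474) and 248 CPM (221 to 277) with vehicle and 629 CPM (498 to 784) with AA.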

How the data were processed

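Single-cell libraries (10x Genomics 3′ v3) were made from GFP+ cells of 8 skin and 9 kidney samples. The authors deposited whole-number UMI counts per gene and called cell barcode, with no normalization. The submitters' processing notes name Cell Ranger 3.0.2, Seurat 2.3.4 and mm10, while the file headers name Cell Ranger 4.0.0 (the first 2 PBS and bleomycin libraries of SARAWT skin), 3.1.0 (the other skin libraries) and 3.0.2 (kidney). The 2 gene lists (32286 and 31053 genes) were joined by Ensembl identifier, leaving 30406.

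Barcodes were kept with 200 or more genes and with mitochondrial UMIs of at most 20% in skin and 50% in kidney, and predicted doublets (scrublet in scanpy 1.11.5, 0.8% per 1000 cells) were left out. A cell joined the class whose marker list scored highest (at least 0.15, at least 2 markers detected, a lead of 0.05), and 9.44% of the assigned skin cells and 2.48% of the kidney cells lay near that limit. UMIs were summed per library and class with at least 10 cells. Classes with fewer than 3 such libraries, among them skin melanocytes, were not ranked by level. The sums of SARAWT libraries were tested in edgeR 4.0.16 under R 4.3.3 (low genes removed by filterByExpr, TMM scaling, the quasi-likelihood test), adjusted by Benjamini-Hochberg over all genes of a fit, at 0.05. DESeq2 1.42.0 was an alternative. Classes were compared within libraries by exact sign-flip tests on genes with at least 10 CPM in either class. An exact permutation of 3 against 3 libraries cannot go below p = 0.1.

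Replicate numbers come from the labels. In skin, libraries of the same number deviated together in every pair (r over 0.1) in 5 of 9 classes checked (all cells, dendritic cells, mononuclear phagocytes, neutrophils and stromal cells). Pairs of other numbers reached r = 0.363 in mononuclear phagocytes and 0.208 in all cells, but at most 0.022 in stromal cells. In kidney, libraries of the same number did so in every pair in 0 of 10 classes. When 200 genes were shifted by a log2 fold of 2 in simulated counts, the fits recovered 23.0% (group 2 innate lymphoid cells) to 79.0% (dendritic cells) in skin and 35.5% (endothelial cells) to 89.5% (intercalated cells) in kidney classes, but 0% in all kidney cells together. The members and the lists of other pathway genes were chosen with earlier results of these data known. All members are named in the text, other pathway genes only where they passed, and for likeness the 2 genes with the highest correlation of log2(CPM + 10) among genes with at least 50 CPM in some class. Counting intervals and floors cover counting error only. Sequences are from RefSeq, with windows for 7 of the 9 members. Alternatives were another size factor, filters, gates and cell sets, the SARATg libraries added, the replicate block and each library left out in turn. Where SARATg libraries were added, genotype was coded by label, also in libraries whose Zfyve9 went against it.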

Additional observations from a re-analysis of the deposited data

Results flagged for a closer look

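Kidney T cells are listed because, for 2 members, every SARAWT AA value lay below every SARAWT vehicle value while the SARATg AA value lay above both SARATg vehicle values. Neither member passed the test, and 9.56% of all genes tested in kidney T cells were separated between the SARAWT groups. Srxn1 in SARAWT T cells was at 6.22, 3.66 and 2.01 CPM with vehicle and 1.17, 1.35 and 1.85 CPM with AA (log2 fold change -1.10, SE 0.55, adjusted p = 0.944, edgeR). In SARATg T cells it was at 1.04 CPM (0.283 to 2.66) and 0.381 CPM (0.00966 to 2.12) with vehicle, a mean of 0.711 CPM, and at 4.08 CPM (2.86 to 5.65) with AA, where the exact 95% intervals cover counting error only. These are 4, 1 and 36 UMIs. Prdx1 in SARAWT T cells was at 391, 353 and 312 CPM with vehicle and 304, 299 and 297 CPM with AA (log2 fold change -0.083, SE 0.14, adjusted p = 1). The SARATg vehicle libraries had 296 CPM (279 to 314) and 216 CPM (198 to 234), a mean of 256.03 CPM, and the AA library had 389 CPM (376 to 402). The difference between genotypes was not tested, since SARATg has 1 AA library, and that library's Zfyve9 went against its label.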

How the results depend on the processing

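With the threshold at an adjusted p of 0.05, the count of skin member tests past it was 0, and it was 5 with DESeq2 (3.49% of all tests), 6 with the SARATg libraries added (4.08%), 7 with no filter on low counts (1.72%), 2 with the replicate block (3.06%) and 0 to 7 when each library was left out in turn (7 without PBS 3, with 2.41% of all tests, and 0 otherwise). The kidney count was 0, and it was 2 with at least 30 cells per library (0.0763% of all tests), 5 with no filter (0.891%), 3 with the replicate block (0.0580%) and 0 to 9 with each library left out (9 without vehicle 3, with 4.68% of all tests). The 2 with at least 30 cells were Mt1 and Mt2 in intercalated cells. There this setting drops only vehicle 3 (19 cells), so it repeats the fit without that library. Cell filters, doublets kept, the stricter gate, RLE size factors, mitochondrial UMIs left out and shared barcodes left out kept both counts at 0. The block passed Mt2 in all skin cells, Mt1 in skin mural cells, Mt2 in kidney endothelial cells and both metallothioneins in intercalated cells (1.73 for Mt1, 1.93 for Mt2), and changed no other call. AA 3 had too few endothelial cells, so under the block vehicle 3 had no partner and did not enter the treatment estimate. Endothelial Mt2 was at 137 CPM in AA 1 and 3.98 CPM in vehicle 1, and at 0 CPM in AA 2 and vehicle 2. For mural cells PBS 1 likewise had no partner. Of the skin members, 5 passed the comparison of phagocytes with stromal cells, and 0 did with SARAWT libraries only, where an exact permutation of 6 libraries cannot go below p = 0.03125.

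Of the 20 skin pairs of gene and class with an unadjusted p under 0.05, 19 kept their direction in every alternative; Gclc in keratinocytes turned to 1.22 without PBS 1 and 3. Of 19 kidney pairs (the 8 with an unadjusted p under 0.05, those passing in an alternative, and the metallothioneins in all cells and tubule and endothelial classes) 8 did. Without vehicle 1 and 2 (SARATg added) the estimate was -0.0051 for Mt2 in all cells, -0.24 and -0.48 for Mt1 and Mt2 in distal convoluted tubule and -0.50 for Mt2 in intercalated cells. Mt2 in all cells was -0.023 with doublets kept and -0.044 with stricter cells. With the block it was 3.69 (Mt1) and 5.07 (Mt2) in endothelial cells, 0.43 for Mt2 in proximal tubule and 1.06 for Mt2 in the thick ascending limb, where adding SARATg gave 0.28. Leaving out 1 library, Mt1 ran from -0.16 to 1.95 in all cells, -0.040 to 1.52 in distal convoluted tubule, -6.51 to 4.41 in endothelial cells, -1.94 to 1.10 in proximal tubule and -0.11 to 2.00 in the thick ascending limb, and Mt2 from -0.41 to 2.39, -0.37 to 1.86, -9.78 to -0.60, -2.02 to 2.43 and -0.77 to 2.45 in the same classes. In endothelial cells Mt2 could not be fitted without vehicle 3. The endothelial range ends of -6.51 (Mt1) and -9.78 (Mt2) came without AA 1. They set AA 2 alone (22 cells, 1 UMI of Mt1, 0 of Mt2) against vehicle. A count of 0 fixes no size of fold, so -9.78 is not a measured difference, and -6.51 rests on 1 UMI. In endothelial cells vehicle 3 had no AA partner of its number, so the block took it out of the treatment estimate, as did leaving it out. The cause of the other sign changes was not tested. The settings without PBS 1 and 3, without vehicle 1 and 2, and without shared barcodes were chosen after seeing the data. Depth limits the low genes, so that Slc7a11 could be tested in few classes.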

Other observations

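The ratio of Mt2 to Mt1 UMIs differed between cell classes of the same libraries. In skin it was 0.628 ± 0.123 (SD, n = 8) in keratinocytes, 0.599 ± 0.125 (SD, n = 7) in muscle cells and 0.566 ± 0.0928 (SD, n = 8) in stromal cells. Mononuclear phagocytes of the same tissue had 0.104 ± 0.0509 (SD, n = 8) and dendritic cells 0.157 ± 0.0563 (SD, n = 8), and the highest phagocyte library (0.181) lay below the lowest stromal library (0.401). These means pool control and treated libraries. In phagocytes the highest ratio was that of SARATg PBS and the lowest (0.0476) that of SARAWT bleomycin 2, and the ratio was not compared between treatments. Kidney classes with high Mt1 kept a low ratio, 0.117 ± 0.0378 (SD, n = 9) in the thick ascending limb and 0.131 ± 0.0302 (SD, n = 9) in the distal convoluted tubule, and kidney phagocytes had 0.0471 ± 0.0297 (SD, n = 9). This ratio was examined after the levels had been seen, and no test was made of it.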
